A study of Homo sapiens with 6 samples.

Results

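Integrin subunits are the genes ITGA2, ITGA3, ITGA5, ITGA6, ITGAV, ITGB1, ITGB4 and ITGB5, taken here by gene symbol from tables of alternative splicing (AS) events in NCI-H1975 cells. The tables hold 81 rows of these 8 genes. Of these, 79 events averaged 10 or more junction reads over the 6 libraries and were kept, of 66395 such events in 10146 genes. The kept integrin events were 61 skipped exons (SE), 11 pairs of mutually exclusive exons (MXE), 4 retained introns (RI) and 3 alternative 5′ splice sites (A5SS). A retained intron of ITGA5 and a 5′ exon of ITGB1 stayed under the minimum. NCI-H1975 is an established human lung adenocarcinoma (LUAD) cell line. The control group was transfected with the empty PCDNA3.1 plasmid and the SAM68 group with PCDNA3.1-SAM68 (2 µg per well), and the cells were kept for 48 h. Each group had 3 libraries. Both groups thus carried a plasmid and the cells are 1 line. The methods call the libraries biological replicates without naming separate cultures, so the p-values measure only the spread between these libraries.

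Integrins are receptors made of 1 α and 1 β subunit that join the extracellular matrix to the cytoskeleton and signal through their short cytoplasmic tails. The β subunit of ITGB1 pairs with many α subunits, among them the collagen receptor subunit of ITGA2, the laminin receptor subunits of ITGA3 and ITGA6 and the fibronectin receptor subunit of ITGA5. The subunit of ITGB4 pairs only with that of ITGA6 and anchors epithelial cells at hemidesmosomes, and the subunit of ITGB5 pairs with that of ITGAV to bind vitronectin. Several of these genes are known for alternative exons that change the cytoplasmic tail. SAM68, the product of KHDRBS1, is an RNA-binding protein that takes part in splicing.

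The exons on which the inclusion values below turn are shown first. The coding parts of the ITGA6 and ITGA3 exons named A and B, the 81-nt D exon of ITGB1, exons 33 and 35 of ITGB4, and exons 7 and 9 of ITGB5 follow, read from GRCh38 in the direction of transcription. Capitals mark the letters TAAA or TTAA, which match the A/U-rich sequences that SAM68 is known to bind.
ITGA6 exon 25, A tail, chr2:172501772-172501879 (+): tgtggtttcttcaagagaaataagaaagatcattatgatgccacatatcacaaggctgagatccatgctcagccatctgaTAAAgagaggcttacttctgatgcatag
ITGA6 exon 26, B tail, chr2:172504091-172504252 (+): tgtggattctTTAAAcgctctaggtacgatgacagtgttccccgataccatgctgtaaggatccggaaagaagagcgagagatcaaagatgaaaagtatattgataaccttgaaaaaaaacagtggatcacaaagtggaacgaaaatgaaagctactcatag
ITGA3 exon 25, A tail, chr17:50088225-50088335 (+): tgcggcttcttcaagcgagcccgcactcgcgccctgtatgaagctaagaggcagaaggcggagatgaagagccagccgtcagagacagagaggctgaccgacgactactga
ITGA3 exon 26, B tail, chr17:50089110-50089265 (+): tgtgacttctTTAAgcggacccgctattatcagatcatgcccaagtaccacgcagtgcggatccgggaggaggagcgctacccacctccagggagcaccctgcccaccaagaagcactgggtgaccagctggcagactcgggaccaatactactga
ITGB1 D exon, chr10:32907063-32907143 (-): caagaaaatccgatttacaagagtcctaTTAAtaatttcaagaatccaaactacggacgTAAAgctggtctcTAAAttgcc
ITGB4 exon 33, chr17:75753765-75753974 (+): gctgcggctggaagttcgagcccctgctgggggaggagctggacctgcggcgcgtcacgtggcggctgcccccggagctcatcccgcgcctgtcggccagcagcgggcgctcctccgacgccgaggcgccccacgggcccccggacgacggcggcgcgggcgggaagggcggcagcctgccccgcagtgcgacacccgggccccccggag
ITGB4 exon 35, chr17:75755701-75755850 (+): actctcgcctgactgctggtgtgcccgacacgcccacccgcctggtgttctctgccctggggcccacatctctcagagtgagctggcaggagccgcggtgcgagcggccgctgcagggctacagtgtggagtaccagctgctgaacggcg
ITGB5 exon 7, chr3:124819739-124819834 (-): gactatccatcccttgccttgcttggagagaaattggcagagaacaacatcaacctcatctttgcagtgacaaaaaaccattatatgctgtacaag
ITGB5 exon 9, chr3:124809022-124809156 (-): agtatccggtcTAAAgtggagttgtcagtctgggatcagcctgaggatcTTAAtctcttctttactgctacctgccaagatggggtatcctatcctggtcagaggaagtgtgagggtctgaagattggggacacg
In the A form of ITGA6 and ITGA3 the stop codon lies within exon 25, so the B tail of exon 26 is translated only when exon 25 is skipped. Exon numbers are those of the main (MANE) transcript of each gene in GENCODE 44.

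The libraries held 16951876 to 19737729 junction reads in the SE table, and a read can count in several events. Gene levels were read from junctions. Each gene was given by its deepest event, scaled to a total of 1000000 such reads in each library (rpm). The overexpressed gene, KHDRBS1, had 311, 328 and 316 rpm in control and 1230, 1260 and 1276 rpm in the SAM68 libraries, a log2 fold change of 1.98 (limma, adjusted p = 1.07e-21). Junction reads of the plasmid and of the genomic copy were not separated. Of 13 epithelial and LUAD markers, 5 had an event in the tables, and KRT8 and KRT18 made up nearly all of their sum. KRT8 had 519.6, 253 and 236 rpm in control and 248, 235 and 229 rpm in SAM68 libraries, so that most of the gap between its group means rested on 1 library. KRT18 had 471 to 492 rpm in control and 521 to 530 rpm in SAM68 libraries. EPCAM, CDH1, KRT19, NKX2-1 and SFTPB had no listed event, which does not show that they were not expressed, since only genes with an AS event are listed. The mesenchymal marker VIM was at 4148 rpm in controls and 4135 rpm in SAM68 libraries, the leukocyte-list gene CD68 was at 96.2 rpm in control and 99.98 rpm in SAM68 libraries, and no endothelial marker was listed. The summed markers ranged from 734 to 997 rpm (epithelial) and from 4085 to 4239 rpm (mesenchymal) in the control libraries, and from 763 to 775 rpm and from 4067 to 4345 rpm in the SAM68 libraries. Their part in the results below was not tested.

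To compare the RNA levels of the subunits, they were set per length, as rpm per 100 nt of the effective length of the event. Each level rests on the deepest event of the gene alone, and protein was not measured here. ITGB1, the shared β subunit, was highest, at 170 ± 9.16 rpm per 100 nt (SD, n = 3) in control and 156 ± 12.98 in SAM68 libraries. ITGA3 followed at 139.9 ± 5.86 and 145 ± 5.75, and the ranges of ITGB1 and ITGA3 over the 6 libraries overlapped. ITGA6 lay at 69.8 ± 4.03 and 68.4 ± 7.48, ITGB5 at 44.7 ± 1.45 and 47.0 ± 2.60, and ITGA5 at 22.3 ± 3.53 and 24.5 ± 3.94. These 3 genes and ITGA3 did not overlap with their neighbours in the order, apart from the overlap of ITGA3 with ITGB1. ITGAV was lower, at 13.8 ± 2.66 and 10.4 ± 1.75, and its range overlapped that of ITGA2, at 7.73 ± 0.876 and 6.90 ± 2.28. ITGB4 was the lowest of the 8, at 4.61 ± 0.706 and 5.40 ± 1.502, and overlapped ITGA2. The laminin receptor subunits ITGA3 and ITGA6 thus had the highest RNA levels of the α subunits among these 8 genes. ITGB4, the hemidesmosome partner of ITGA6, had the lowest level of these 3 β subunits.

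**Figure D1:**
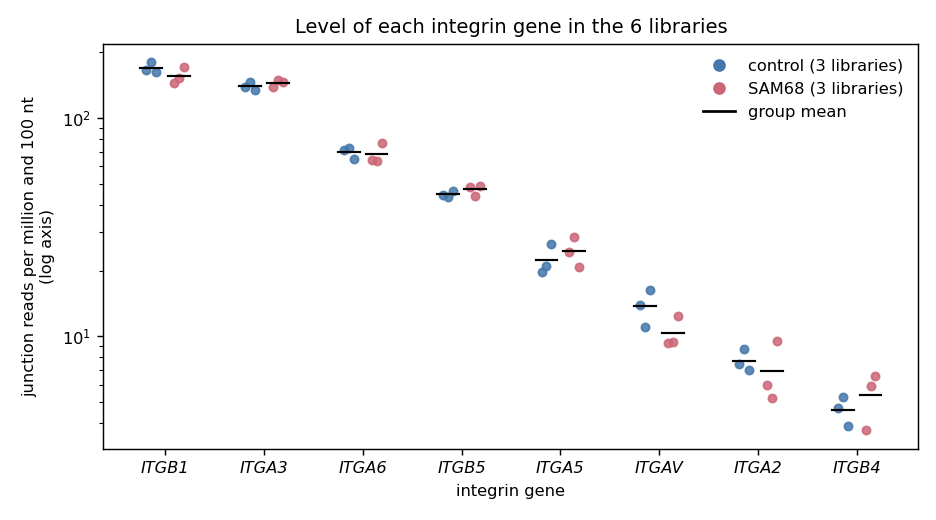
Level of each integrin gene as rpm per 100 nt of effective length (log axis), with 1 point per library and a line at the group mean. The genes fall from ITGB1 (145 to 179.9) to ITGB4 (3.70 to 6.56), and in none of the 8 genes do the control and SAM68 points separate.

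The next question was whether SAM68 changed these levels. None of the 8 integrin genes passed an adjusted p of 0.05 with limma on log2(rpm + 0.5), and in none did the groups separate. Over all 10147 genes tested, 42 genes (0.414%) passed and 1709 (16.8%) had groups that did not overlap. ITGAV had the smallest p. It had 30.3, 24.5 and 36.3 rpm in control and 20.7, 20.9 and 27.5 rpm in the SAM68 libraries, and 1 SAM68 library lay above the lowest control. Its log2 fold change was -0.39 (95% interval -0.72 to -0.05), with an unadjusted p of 0.0243 and an adjusted p of 0.33. The log2 fold change of ITGAV was -0.23 with reads summed over all its events and -0.25 without the control library with the highest level. An unadjusted p under 0.05 was reached by 1 of the 8 genes and by 1222 genes (12%) of all tested. In bulk RNA of this kind, fewer cells with a transcript and less RNA per cell cannot be told apart. ITGB1 had 434, 468 and 422 rpm in control and 378, 398 and 444 rpm in SAM68 libraries, a log2 fold change of -0.12 (interval -0.24 to 0.00, adjusted p = 0.436). Its highest SAM68 library lay within the control range.

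The other 6 genes had log2 fold changes between -0.19 and 0.22, 4 of them above 0. The intervals were narrow for the abundant laminin receptor subunits, -0.07 to 0.17 for ITGA3 and -0.19 to 0.12 for ITGA6, and -0.09 to 0.24 for ITGB5. They were wider for the fibronectin receptor subunit ITGA5 (-0.12 to 0.38), the collagen receptor subunit ITGA2 (-0.61 to 0.23) and ITGB4 (-0.24 to 0.68). The median log2 fold change was 0.01 over the 8 genes and -0.03 over all genes tested. Doubling or halving of any of the 8 genes lay outside its interval, while smaller changes of ITGA2 and ITGB4 could not be told from none.

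Splicing of the integrin genes was compared as percent spliced in (PSI), the share of the inclusion form with each count taken per effective length, and as the difference SAM68 minus control (∆PSI, in percentage points). No integrin event was called, that is, none had an adjusted p under 0.05 in a quasi-binomial test moderated by limma and a ∆PSI of 10 points or more as well. Of all 66395 events tested, 18 (0.0271%) were called. At an unadjusted p under 0.05 there were 7 of the 79 integrin events, against 5594 (8.43%) of all events. The groups did not overlap in 6 of the 79, against 4053 (6.1%) of all events. With limma on the logit of PSI, 3 integrin events (3.8%) had an unadjusted p under 0.05, against 4.59% of all events, and none an adjusted p under 0.05, against 0.00602%. With an unmoderated spread for each event, the counts were 4 (5.06%) and 0, against 2.87% and 0.00301% of all events. A likelihood ratio test on pooled counts, which ignores the spread between libraries, gave 17 (21.5%) and 7 (8.86%), against 23% and 6.24% of all events, and none of the 7 reached 10 points. The median absolute ∆PSI was 0.38 points over the integrin events and 1.24 over all events, beside a median depth of 456 and 111 reads per event.

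Most integrin events had nearly full or nearly no inclusion in these cells. In 48 events PSI was at least 95% in both groups and in 13 events it was at most 5% in both, together 77.2% of the integrin events against 62.2% of all events. An interval of the difference could be fitted for 43 events, and in 36 of them it lay within 10 points on either side of 0. For the other 36 events a form had no reads in a group and no interval was fitted. In 7 events the interval reached past 10 points. These were both events of ITGB4, the MXE row of ITGA5, 2 events at exons 5 and 6 of ITGAV, and events of ITGA3 (RI) and ITGB1 (A5SS).

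**Figure D2:**
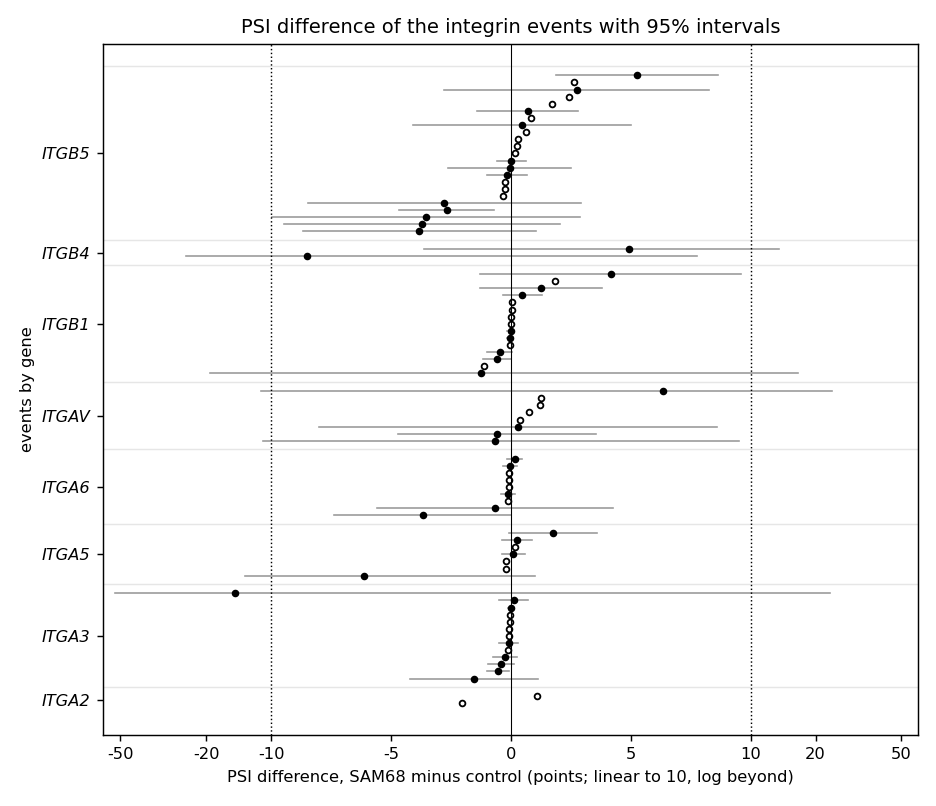
∆PSI (SAM68 minus control, from the fit) of the 79 integrin events by gene, with 95% intervals as grey lines. Open points are the 36 events without an interval, dotted lines mark 10 points, and the widest interval is that of an ITGA3 intron (-52.7 to 23.3 points).

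ITGA6 was the clearest case of alternative tails. Exon 25 (130 nt, chr2:172501772-172501901) gives the A tail shown above, and its skipping gives the B tail, and both tails are known to occur in epithelial cells. PSI of exon 25 was 74.7%, 74.8% and 66.7% in control and 70.4%, 74.7% and 69.5% in the SAM68 libraries. The groups overlapped almost fully, at 72.1% ± 4.67 (SD, n = 3) and 71.5% ± 2.74. The inclusion form had 459 to 634 reads and the skipping form 91 to 128 reads per library. The fitted difference was -0.65 points (interval -5.57 to 4.26, adjusted p = 0.882). A shift of 10 points between the A and B tails thus lay outside the interval.

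ITGA3 carries the matching pair of tails, but here the A form stood nearly alone. Exon 25 (142 nt, chr17:50088225-50088366) was joined to its neighbours by 1542 to 1765 reads per library, and its skipping was read once, in 1 SAM68 library. The control libraries together had 0 skipping reads among 5074 reads, which allows a share of up to 0.0591% of the reads. Limits of this kind rest on 3 reads and cover counting error only. The same cells therefore used both tails of ITGA6 and almost only the A tail of ITGA3.

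The D exon of ITGB1 (81 nt), which is known from striated muscle, had 2 inclusion reads in 1 control library and none in the other libraries. Reads that join exon 15 directly to exon 16 numbered 1170 to 1378 per library. In the SAM68 libraries 0 of 3698 reads included the exon, which allows up to 0.0811% of the reads. Muscle-type ITGB1 was thus at or near 0 in both groups.

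**Figure D3:**
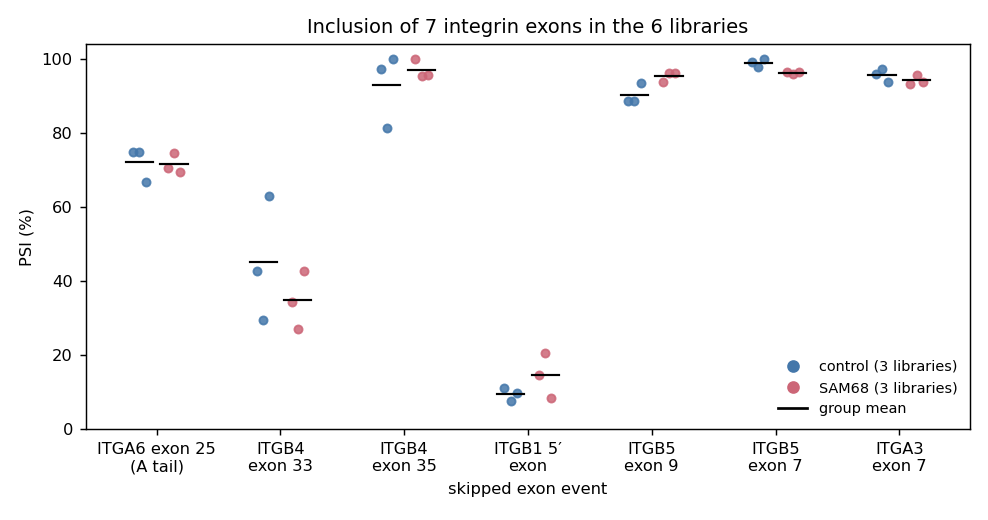
PSI of 7 integrin exons in each library, with a line at the group mean. Exon 33 of ITGB4 spreads from 27.0% to 63.0% over the libraries, exon 25 of ITGA6 lies between 66.7% and 74.8%, and only exons 7 and 9 of ITGB5 have groups that do not overlap.

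ITGB4, which has a long cytoplasmic domain, had 2 events, both in exons that encode this domain and keep the reading frame. Exon 33 (210 nt) was in use in 27.0% to 63.0% of transcripts, the nearest to an even split among the skipped exons. PSI was 42.9%, 29.6% and 63.0% in control and 34.5%, 27.0% and 42.9% in the SAM68 libraries. The ∆PSI of -10.4 points was the largest of the 79 integrin events, but the spread of the control libraries (SD 16.8 points, n = 3) exceeded it and the groups overlapped. It was -1.44 points without the control library with the highest PSI and -18.1 points without the control library with the lowest. The fitted difference was -8.51 points (interval -24.8 to 7.78, adjusted p = 0.565). The event had 39 to 50 reads per library and an own dispersion of 3.04, where 1 is counting noise. A fall larger than the observed one could thus not be told from none. Exon 35 (150 nt) was mostly included, with PSI of 97.2%, 81.4% and 100% in control and 100%, 95.2% and 95.7% in SAM68 libraries. Of the 13 reads that skipped it, 8 were in the control library with the lowest PSI, and without that library the ∆PSI was -1.61 points instead of 4.12.

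ITGB5 had the largest number of events, 23 of 79, and 4 of the 7 integrin events with an unadjusted p under 0.05. These 4 were 17.4% of its 23 events, against 8.43% of all events tested. The 4 concern exons 7 to 9. Exons 6 to 9 are each a whole number of codons long, and rare reads joined them in 8 ways that leave out at least 1 exon. The events share junctions with each other, so they are not independent of each other. Exon 9 (135 nt) had PSI of 88.6%, 88.6% and 93.4% in control and 93.9%, 96.3% and 96.2% in the SAM68 libraries. Each SAM68 library lay above each control library. The skipping reads, which join exon 8 to exon 10, numbered 31, 28 and 15 in control and 18, 9 and 9 in SAM68 libraries. The fitted difference was 5.26 points (interval 1.87 to 8.66). The ∆PSI, 5.24 points, was 2.83 without length normalization and 2.40 with the events that share the exon summed. The unadjusted p was 0.00366 and the adjusted p was 0.379, so the event did not pass the test over all events.

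Exon 7 of ITGB5 (96 nt), chosen after its values were seen, had a difference of the other sign. PSI was 99.2%, 97.7% and 100% in control and 96.5%, 95.9% and 96.5% in the SAM68 libraries, again without overlap. The reads that join exon 6 to exon 8 numbered 2, 6 and 0 in control and 10, 11 and 9 in SAM68 libraries. The fitted difference was -2.68 points (interval -4.65 to -0.71), with an unadjusted p of 0.00861 and an adjusted p of 0.456. Exon 8 (90 nt), which lies between them, had 2, 13 and 5 skipping reads in control and 3, 7 and 12 in SAM68 libraries, a fitted difference of -0.05 points (interval -2.62 to 2.52). The junction from exon 6 to exon 9 had 4, 0 and 3 reads in control and none in SAM68 libraries, and the other 2 of the 4 events with an unadjusted p under 0.05 rest on these 7 reads. Summed over the 8 junctions, the skipping reads were 43, 53 and 26 in control and 37, 27 and 30 in SAM68 libraries, and the groups overlapped.

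**Figure D4:**
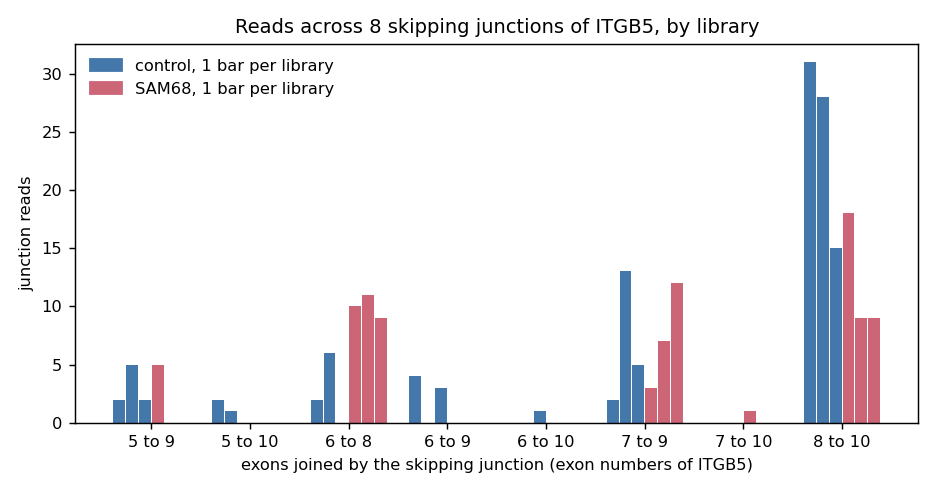
Reads across the 8 junctions of ITGB5 between exons 5 and 10 that leave out at least 1 exon, with 1 bar per library in list order. The junction from exon 8 to 10 had 74 reads in control and 36 in SAM68 libraries, and that from exon 6 to 8 had 8 and 30.

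ITGA6 has a second known choice, between the exons named X1 (exon 5, 132 nt) and X2 (117 nt, chr2:172472774-172472890) in the part of the gene that encodes the extracellular head. In the row that sets them against each other, X1 had 847 to 1177 reads per library and X2 had 0 to 4. PSI of X1 was 99.9% ± 0.00532 in control and 99.8% ± 0.212 in SAM68 libraries (SD, n = 3). X2 was thus almost unused in both groups, as it was in the row of the X2 exon alone, where PSI was at most 0.383% in any library.

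ITGA3 also showed several minor forms. Exon 7 (197 nt) had PSI of 96.0%, 97.4% and 93.9% in control and 93.3%, 95.6% and 93.7% in SAM68 libraries, with 8 to 21 reads per library that joined exon 5 to exon 8. This was the largest ∆PSI of ITGA3 at a depth of 50 reads or more, at -1.53 points, and the groups overlapped. It was -0.72 points without the control library with the highest PSI, -2.47 without that with the lowest and -0.80 without length normalization. A splice site 12 nt downstream of exon 9 (chr17:50074281-50074292), which adds 4 codons, was read 14, 4 and 2 times in control and 0, 0 and 2 times in SAM68 libraries, beside 917 to 1240 reads per library of the usual site. The fitted difference was -0.52 points (interval -0.98 to -0.06, unadjusted p = 0.0216, adjusted p = 0.586), and 14 of the 22 reads came from 1 control library, without which the ∆PSI was -0.19 points instead of -0.55. The 72-nt intron after exon 11 had a PSI of 0.603% to 1.61%. A 97-nt exon between exons 22 and 23 had PSI between 0.0831% and 1.15%. A retained stretch of 697 nt that spans exon 15 had 7 to 19 reads per library and PSI from 7.69% to 100%, with no order by group.

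ITGA5 exon 3 (113 nt) had a PSI of 97.4%, 96.5% and 100% in control and 100%, 100% and 99.3% in SAM68 libraries, from 9 skipping reads in 2 control libraries and 1 in a SAM68 library (fitted difference 1.77 points, interval -0.06 to 3.60, unadjusted p = 0.0476, adjusted p = 0.565). The ∆PSI, 1.77 points, was 1.04 without the control library with the lowest PSI, 2.78 without that with the highest and 0.965 without length normalization. ITGA2 had 2 events, at exon 5 (115 nt) and exon 24 (103 nt), each with 2 skipping reads in a single library. The exon 5 event is read as joining exon 4 to exon 7 when skipped, and its ∆PSI was -2.20 points. Exon 21 of ITGAV (93 nt) had 4 skipping reads in 1 control library and none elsewhere, and exon 5 of ITGAV (62 nt) had 4 skipping reads in 1 control library and 4 in 1 SAM68 library. These rare forms of ITGA2 and ITGAV thus rested on 1 or 2 libraries each.

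ITGB1 had 6 kept rows in its 5′ untranslated region, upstream of the start codon. An exon of 233 nt (chr10:32933351-32933583) and its shorter form of 102 nt between exons 2 and 3 were each read in a small share of transcripts. PSI of the longer form was 2.85%, 2.83% and 3.01% in control and 2.505%, 2.41% and 2.06% in SAM68 libraries, without overlap (∆PSI -0.57 points, adjusted p = 0.565). The shorter form had 1.62%, 2.08% and 2.08% in control and 1.53%, 1.60% and 1.28% in SAM68 libraries, also without overlap (∆PSI -0.46, adjusted p = 0.565). Both rows share the same skipping reads. The choice between the 2 splice sites of this exon favoured the longer form, at 76.7% ± 10.05 in control and 75.3% ± 5.70 in SAM68 libraries (SD, n = 3). Another exon of 217 nt (chr10:32953593-32953809) had PSI of 11.02%, 7.76% and 9.92% in control and 14.8%, 20.5% and 8.40% in SAM68 libraries when joined to an upstream exon outside the main transcript. This was the largest ∆PSI of ITGB1, at 4.98 points, and the groups overlapped (fitted difference 4.17, interval -1.28 to 9.62). It was 0.788 points with the events that share the exon summed and 2.01 without the SAM68 library with the highest PSI. It was larger without the SAM68 library with the lowest PSI, and 7.63 without length normalization. Joined to exon 1 of the main transcript, the same exon had PSI between 1.29% and 3.16%.

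The second smallest p of the integrin events belonged to exon 15 of ITGB1 (167 nt), the last exon before the D exon. It was skipped in 21 reads of 1 SAM68 library and in none of the other 5 libraries, beside 1171 to 1379 inclusion reads per library. The unadjusted p was 0.00476 and the adjusted p was 0.394. The event's own dispersion was 11.2, where 1 is counting noise, and without that library no skipping read was left. Its adjusted p was 0.0452 with dispersions raised to 1 before moderation and 1.448e-05 with the pooled test, and its ∆PSI was -1.15 points.

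In MXE rows, PSI is the share of the exon nearer the 5′ end of the gene. In 10 of the 11 rows both exons are exons of the main transcript, and GENCODE 44 lists at least 1 transcript that holds both, so these rows compare the coverage of exons that are normally joined in series. In ITGA6, exon 20 was set against exon 21, with PSI of 51.4%, 51.6% and 53.3% in control and 47.0%, 48.8% and 49.5% in SAM68 libraries. The groups did not overlap, and the fitted difference was -3.68 points (interval -7.39 to 0.03, adjusted p = 0.583). Exon 28 against exon 29 of ITGA5 gave 54.7%, 54.2% and 47.2% in control and 46.7%, 41.3% and 49.2% in SAM68 libraries, and these overlapped (∆PSI -6.31 points, and -4.09 without the SAM68 library with the lowest value). In ITGB5, exon 6 against exon 9 gave 58.2% ± 1.38 in control and 54.4% ± 0.836 in SAM68 libraries (SD, n = 3) without overlap (adjusted p = 0.705). In ITGB1, exon 7 against exon 8 gave 56.2% ± 1.11 in control and 57.5% ± 1.41 in SAM68 libraries (SD, n = 3), with a fitted difference of 1.26 points (interval -1.27 to 3.798). The ∆PSI of this row was 1.31 points and lay between 0.67 and 2.07 with a SAM68 library left out. The events with a PSI nearest 50% in ITGA5, ITGA6, ITGB1 and ITGB5 were all rows of this kind.

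The letters TAAA or TTAA were counted on the transcribed strand in the 100 nt of intron before and after each skipped exon, and overlapping matches such as TTAAA were counted at each start. They occurred upstream of 22 and downstream of 27 of the 49 distinct integrin exons (44.9% and 55.1%). Among all 38685 skipped exons tested, 55.2% had a match upstream and 54.2% downstream. Exon 25 of ITGA6 had 4 matches upstream, 1 within and 3 downstream, and the X2 exon had 4 downstream. The D exon of ITGB1 held 3 within its 81 nt. Exon 9 of ITGB5 had 2 upstream, 2 within and 1 downstream, while exon 7 of ITGB5 and exons 33 and 35 of ITGB4 had none in any of the 3 windows. A match is only a string of letters and no binding was measured.

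The partners of the integrins were taken from 8 lists of 134 genes, of which 91 had enough junction reads. None of these 91 genes was called, against 0.414% of all genes, and 11 (12.1%) had an unadjusted p under 0.05, against 12% of all genes. The groups did not overlap in 26 of the 91 (28.6%), against 16.8% of all genes, a difference that was not tested. The median log2 fold change was -0.04 over the lists and -0.03 over all genes. Of the other integrin subunits, 3 of 17 had enough reads, with log2 fold changes from -0.44 to 0.36. Among 14 extracellular ligands the range was -0.44 to 0.23 and among 4 hemidesmosome partners -0.21 to 0.16. Among 21 activators and adaptors the range was -1.05 to 0.30, with LIMS1, an adaptor bound to ILK, at an adjusted p of 0.126 (63.4 ± 4.95 rpm in control and 46.5 ± 12.3 in SAM68 libraries, SD, n = 3). This was the smallest adjusted p of the lists. Among 17 signalling kinases and partners the range was -0.31 to 0.23, among 8 inhibitors of activation -0.17 to 0.33, and among 15 tetraspanins and trafficking genes -0.25 to 0.12. Among 9 known splicing regulators of integrin exons the range was -0.18 to 0.44, and 3 had an unadjusted p under 0.05. These were PTBP1 (log2 fold change 0.16), RBFOX2 (0.35) and SRSF1 (-0.18), with adjusted p from 0.213 to 0.235. Over the 8 lists, 38 genes had a log2 fold change above 0 and 53 below, against 4363 above and 5784 below over all genes tested.

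**Figure D5:**
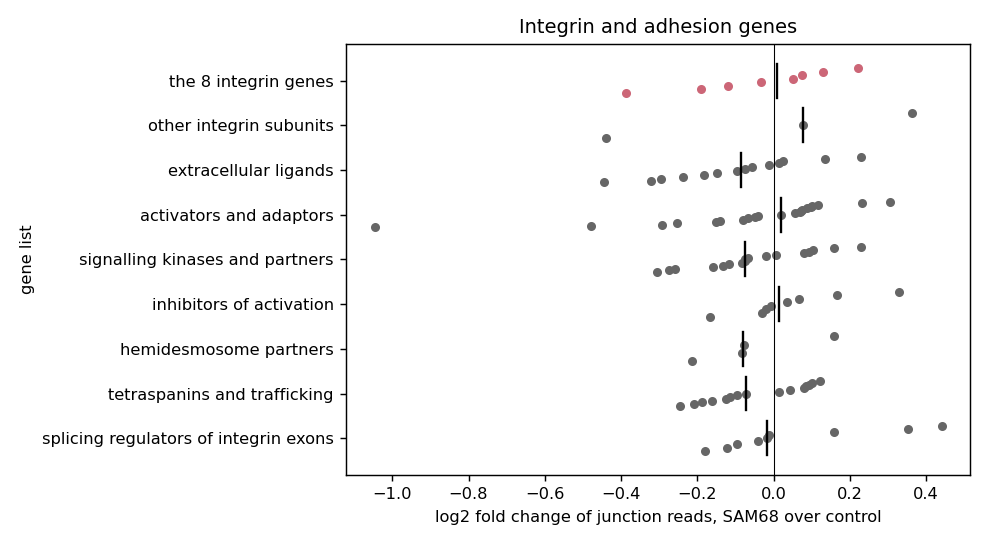
Log2 fold change (SAM68 over control) of the 8 integrin genes and of the 91 genes of the 8 lists, 1 point per gene, with a line at the median of each list. All points but 1 lie between -0.48 and 0.44. The exception is TLN2 at -1.05, a gene with few reads (4.65 rpm in control and 2.19 rpm in SAM68 libraries, limma adjusted p = 0.264).

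Of the 842 events of the list genes tested, none was called. An unadjusted p under 0.05 was reached by 63 (7.48%), against 8.43% of all events, and groups that did not overlap by 50 (5.94%), against 6.1% of all events. An adjusted p under 0.05 was reached by 2 of the list events (0.238%) and by 65 (0.0979%) of all events. Both were MXE rows with a ∆PSI under 10 points, and 53 of all 8791 MXE rows had an adjusted p under 0.05. Whether the exons of these 2 rows are normally joined in series was not checked. Neither passed with limma on the logit of PSI (smallest adjusted p of the list events 0.361) or with an unmoderated spread for each event (0.585). RAP1B, a small GTPase that activates integrins, had PSI of 61.7% ± 1.498 in control and 53.7% ± 2.30 in SAM68 libraries (SD, n = 3, adjusted p = 0.0153). CD151, a tetraspanin bound to the laminin-binding integrins, had PSI of 65.7% ± 0.617 and 59.97% ± 1.254 (adjusted p = 0.0327). In both the groups did not overlap. In all, 30 of the 842 events (3.56%) had a ∆PSI of at least 10 points, against 7.17% of all events.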

How the data were processed

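Per the labels and the study's methods, RNA from NCI-H1975 cells was sequenced as paired-end reads, checked with fastp (0.20.0), aligned with HISAT2 (2.1.0) to GRCh38 and listed by rMATS, whose version is not given in the sources used here. For both forms of each event the authors deposited junction counts as read, in lists of 3 values per group, without replicate numbers, with effective lengths. The tables also hold the authors' own p-values, FDR and inclusion level differences, which were not used. The first list was taken as control, after the order of groups in the study's heading. Of 78336 events listed, 113 with counts regrouped by a spreadsheet were left out, none of an integrin gene.

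PSI was tested in R 4.3.3 with a quasi-binomial model whose dispersion was moderated within each type by limma 3.58.1 and kept at 1 or more, with an F test and Benjamini-Hochberg adjustment within each type. Intervals are 95% intervals of the fitted difference. Genes were tested with limma (eBayes with trend) on log2(rpm + 0.5), where edgeR had been planned, since lists of counts are not a count table. On simulated data with 200 changed features, the event test called 189 events shifted by 30 points and 6 unchanged events. The gene test called 200 genes shifted by 2 on the log2 scale and 6 unchanged genes. The shifted events had a middle share of inclusion reads and a mean of at least 50 reads, and the shift was made in that share. Smaller shifts, and shifts of events with nearly full or nearly no inclusion, were not simulated. Exact permutation tests of 3 against 3 libraries, two-sided, cannot go below p = 0.1. Replicates differed by more than sampling noise (chi-square per degree of freedom 3.15 to 4.56 within a group). Named events were, per gene, those with the smallest p, the largest ∆PSI and the PSI nearest 50% (the last 2 at a mean of at least 50 reads), every called event and the alternative cytoplasmic exons. Other events and list genes were chosen after their values were seen. The members and lists were chosen with earlier results of these data known.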

Additional observations from a re-analysis of the deposited data

How the results depend on the processing

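The count of integrin events called was 0 in each of the 13 alternative settings and without each library in turn, and the count of integrin genes called was 0 in each of the 8 settings and without each library. KHDRBS1 stayed called in each. The count of list events called rose from 0 to 2 (KANK2) with a mean of at least 50 reads and with all types adjusted together, to 2 without a limit on ∆PSI and with a limit of 5 points, to 9 with the pooled likelihood ratio test and to 5 with dispersions raised to 1 before moderation, an alternative chosen after seeing the data. The count of list genes called rose to 1 (RAP1B) with reads summed over all events of a gene, and lay between 0 and 1 with a library left out. The 1 is LIMS1 without the second SAM68 library. The direction of ∆PSI turned when a library was left out for exon 25 of ITGA6 (-3.26 to 0.81 points), exon 5 of ITGAV (-2.42 to 1.62) and exon 35 of ITGB4 (-1.61 to 7.69). That of exon 33 of ITGB4 lay between -18.1 and -1.44, and that of the ITGB5 row of exons 7 and 9 between -5.60 and -1.64. The log2 fold change of ITGA6 lay between -0.12 and 0.0137 with a library left out, and that of ITGA3 was -0.00712 with reads summed over all events. This sum gave -0.23 for ITGAV, 0.07 for ITGA5, -0.12 for ITGA6 and 0.11 for ITGB4. The ∆PSI of exon 9 of ITGB5 was 2.83 points without length normalization and 2.40 with events that share the exon summed. The same settings gave 7.63 and 0.788 for the 217-nt exon of ITGB1, which was 2.01 without the second SAM68 library. With a library left out, the log2 fold change lay between -0.44 and -0.02 for ITGA2, 0.01 and 0.25 for ITGA5, -0.53 and -0.25 for ITGAV, -0.18 and -0.07 for ITGB1, and 0.07 and 0.45 for ITGB4. Without length normalization the ∆PSI of exon 35 of ITGB4 was 2.35 and that of exon 5 of ITGA2 was -1.21. The causes were not tested. ITGB4, ITGA2 and ITGAV had the lowest median reads per event of the 8 genes. No paired analysis was possible because the lists carry no replicate numbers. The edgeR and DESeq2 alternatives, and TMM factors, were not run.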
